A study of Mus musculus with 3 samples.

Results

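The genes described are the histone genes of the mouse line Ba/F3, measured in 3 libraries of polyadenylated RNA. Members were chosen by symbol: every gene of the GRCm38 annotation whose name starts with Hist1h to Hist4h, H2af, H3f3 or H1f. The rule found 92 genes, of which 91 could be matched in all cultures, out of 55211 matched genes. The remaining gene, the pseudogene H1f11-ps, was not joined between cultures. Of the 91, 67 are protein-coding genes with Hist symbols (cluster genes), 15 are protein-coding genes with the other symbols (variant genes) and 9 are pseudogenes or an antisense gene. Most members carry a newer symbol in the deposited table (H2bc21 for Hist2h2be, H1f2 for Hist1h1c, H2az1 for H2afz, Macroh2a1 for H2afy), and 27 of the symbols written there fit the rule. The older names are used below.

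Ba/F3 is an established mouse haematopoietic line that depends on interleukin-3 for growth. The series holds 3 untreated cultures in 1 group, kept in RPMI with 10% fetal calf serum, penicillin-streptomycin and 0.2 ng/mL recombinant murine IL-3, with no genetic change named in the labels, so the design has no contrast between conditions. The labels call the cultures separate. They do not say whether these were thawed or passaged independently, so the spread between cultures may be partly technical. The libraries held 32044889, 33880292 and 37180883 reads in cultures 1, 2 and 3. Levels are counts per 1000000 reads (CPM), on which scale a single read stands for 0.0312, 0.0295 and 0.0269. The limit that a count of 0 allows, 3 reads, is 0.0936, 0.0885 and 0.0807 CPM. These limits cover counting error only. All 4 markers fixed for an IL-3-dependent line were detected, led by Spn at 767 and Csf2rb at 721 CPM. Of 9 B-lineage markers, Cd79a and Cd79b were detected, while Ebf1, Rag1, Rag2 and Igll1 had no read. None of 5 germ cell or 4 fibroblast markers was detected.

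Histones package DNA: H2A, H2B, H3 and H4 form the nucleosome core and H1 binds the linker. Cluster genes are mostly replication-dependent and supply histone protein in S phase. Their main mRNAs carry no poly(A) tail and end just after a conserved stem-loop, which the stem-loop binding protein holds and which the U7 snRNP helps to cleave. Variant genes are mostly expressed throughout the cell cycle, and their mRNAs end, like most others, at a poly(A) signal and receive a tail. The library kit selects RNA by that tail. Some cluster genes are also known to give longer, polyadenylated transcripts, for example in cells that leave the cycle.

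The stem-loop was searched on the sense strand of GENCODE M21 (GRCm38) transcript models, in up to 150 bases after the stop codon. The window followed the spliced sequence, so introns were not searched. The letters searched were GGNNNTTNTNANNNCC, with all 6 stem pairs able to pair (a G with a T included). Among members with an annotated 3′ UTR, 47 of 64 (73.4%) held it, against 5 of 20917 other protein-coding genes (0.0239%). The 47 were 46 cluster genes and a single variant, H2afx. Below, the 16 stem-loop bases are in capitals with 5 bases on either side, for the cluster genes on which the description turns and for H2afx. A detected linker histone gene, an H4 gene just short of detection, an H3 gene of 4 reads in all and the variant can be set side by side.
Hist1h1c, chr13:23739507-23739532 (+): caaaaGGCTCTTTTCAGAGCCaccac
Hist1h4i, chr13:22040961-22040986 (-): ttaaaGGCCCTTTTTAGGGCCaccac
Hist1h3g, chr13:23535884-23535909 (+): ttaaaGGCTCTTCTTAGAGCCaccca
H2afx, chr9:44335235-44335260 (+): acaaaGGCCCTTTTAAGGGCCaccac

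The 47 stem-loops took 9 forms. The form of Hist1h1c, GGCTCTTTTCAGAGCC, was shared by 26 genes of the H1, H2A, H2B and H3 types. H4 genes held other forms, most often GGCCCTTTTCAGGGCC, in 7 genes. H2afx had a stem like that of Hist1h4i with a different loop, and no other member shared its form.

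The second set shows the poly(A) signal, AATAAA or ATTAAA, found in the last 50 bases of a transcript model, again on the sense strand. It is in capitals within a window of 30 bases. It is shown for the detected cluster genes that have one, for the most abundant variants and for H2afx, which carries both elements.
Hist2h2be, chr3:96223705-96223734 (+): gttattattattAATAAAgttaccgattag
Hist1h1c, chr13:23740330-23740359 (+): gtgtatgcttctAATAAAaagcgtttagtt
H1f0, chr15:79030471-79030500 (+): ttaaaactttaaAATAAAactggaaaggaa
H3f3b, chr11:116021987-116022016 (-): ataggccttacaAATAAActagtaagtttg
H2afx, chr9:44336031-44336060 (+): tgggctaattttATTAAAggatcgtttggt

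A signal stood there in 17 of 67 cluster genes (25.4%) and 10 of 15 variants (66.7%). The share over all other protein-coding genes was 78.1%, 17031 of 21812. A match describes the model, and the 3′ ends used in these cells were not measured.

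Variants, not cluster genes, made up nearly all histone reads in these libraries. Detection, defined as at least 1 CPM in every culture, was met by 8 of 15 variants and 3 of 67 cluster genes, and by none of the 9 pseudogenes and antisense gene. The background was 19.9% of all genes and 45.9% of protein-coding genes detected. The summed level of variants was 1471, 1510 and 1594 CPM in cultures 1, 2 and 3, a mean of 1525 ± 63.3 (SD, n = 3). The summed level of all cluster genes was 25.3, 26.1 and 25.1 CPM, a mean of 25.5 ± 0.504 (SD, n = 3). The 2 ranges lie far apart in every culture. Cluster and variant genes together took 0.155% ± 0.00630 (SD, n = 3) of the reads.

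Cluster genes are shorter than variants, with a median of 539 against 1633 exon bases, so the classes were also compared per kb of exon (RPKM). Cluster genes then gave 2.43% ± 0.0728 (SD, n = 3) of the summed histone level, against 1.65% ± 0.0843 of the reads. Summed variants stood 40.2 ± 1.24 times (SD, n = 3) above summed cluster genes per kb, at 39.0, 39.9 and 41.5 times in the 3 cultures. The cluster share of the level per kb was 2.37% ± 0.125 for H1, 0.373% ± 0.0525 for H2A and 0.291% ± 0.112 for H3 (SD, n = 3). H2B and H4 have no variant among the members, so no such share exists for them. In bulk RNA, fewer cells that express a gene and less RNA per cell cannot be told apart. How far the selection of poly(A) tails lowers the cluster genes was not tested, since no library without selection was analysed here. The classes were described and not tested against each other, because genes are not replicates.

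**Figure D1:**
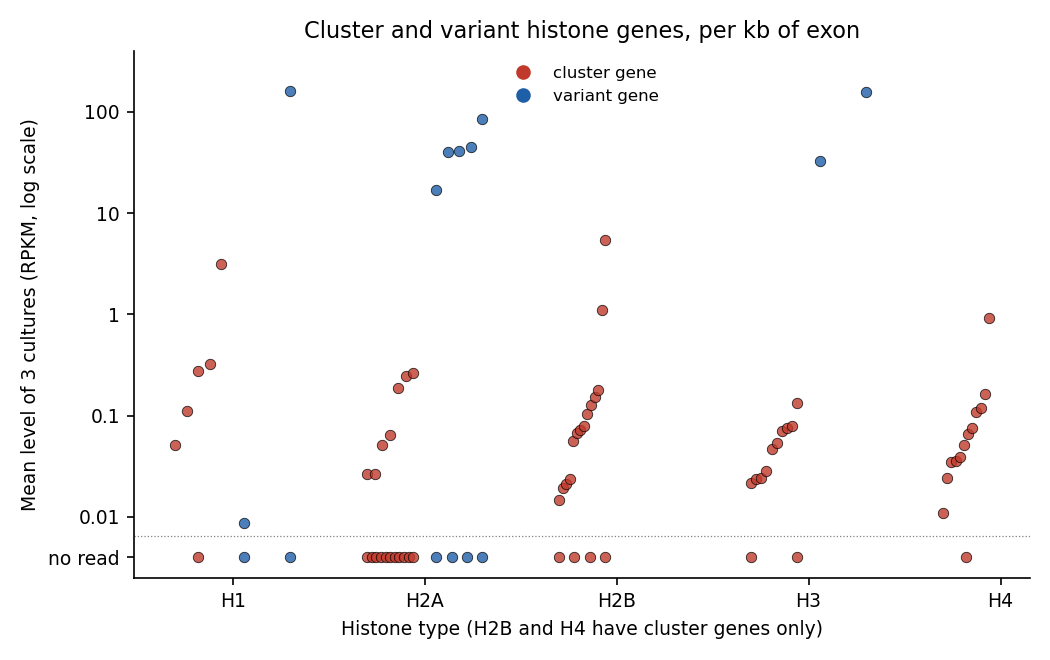
Mean level over the 3 cultures in RPKM (log axis) of each cluster gene (red) and variant gene (blue), by histone type, with genes without a read at the bottom. In H1, H2A and H3 the detected variants lie above every cluster gene of their type, and the highest cluster gene of all is an H2B gene at 5.42 RPKM.

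The H3.3 genes H3f3a and H3f3b encode the same replacement H3, which is placed in chromatin outside replication. H3f3b (chr11:116021912-116027962, -) had 449, 468 and 492 CPM, 158 ± 7.19 RPKM (SD, n = 3). Its percentile per kb among detected genes was 98.0. H3f3a (chr1:180800832-180813943, -) had 110, 118 and 114 CPM, 32.5 ± 1.08 RPKM. Per kb the 2 genes did not overlap in any culture, and H3f3b stood 4.85 ± 0.215 times (SD, n = 3) above H3f3a per kb. Of the exon bases of H3f3a, 22.8% lie opposite other genes, among them its antisense gene H3f3aos, and 72.9% of its 50-base words are unique among transcripts. Whether the counting used strand is not given in the sources used here. H3f3aos itself had 0.811, 0.472 and 0.430 CPM and was not detected.

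H1f0 (chr15:79028450-79030504, +) encodes H1.0, the replacement linker histone best known from cells that stop dividing. It had 326, 332 and 340 CPM, 162 ± 3.30 RPKM (SD, n = 3). Per kb of union exon, H1f0 stood at 158.9, 161.4 and 165.4 RPKM against 150.9, 157.1 and 165.2 for H3f3b. H1f0 was thus slightly higher within each culture, while the ranges over the cultures overlapped. When the longest transcript gives the length, H3f3b reads 187 and H1f0 162 RPKM. The highest cluster H1 gene, Hist1h1c, was 51.8 ± 6.97 times (SD, n = 3) lower per kb than H1f0, at 58.8, 44.9 and 51.6 times in the 3 cultures. Of the other H1 variants, H1foo, the oocyte linker histone, had 1 read in culture 1 and none elsewhere, while H1fx and H1fnt had none. For H1fx, 17.5% of exon bases lie opposite another gene.

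Of the H2A variants, H2afz (chr3:137864487-137866922, +) encodes H2A.Z.1, a variant found around promoters. It had 136, 144 and 175 CPM, 85.4 ± 11.8 RPKM (SD, n = 3). Its near-copy H2afv (chr11:6427229-6444443, -), which encodes H2A.Z.2, had 66.0, 67.1 and 68.3 CPM, 41.1 ± 0.691 RPKM. H2afz thus stood above H2afv in every culture, by 2.07 ± 0.252 times per kb of union exon (SD, n = 3). With the longest transcript as length, H2afz reads 142 and H2afv 41.1 RPKM, a wider gap. Only 64.6% of the words of H2afz are unique, against 100% for H2afv, so the level of H2afz depends on how reads with several matches were handled, which is not given in the sources used here.

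H2afy (chr13:56073619-56136361, -), which encodes macroH2A1, a large variant linked to silent chromatin, had 308, 303 and 300 CPM. Its per-kb level was 44.6 ± 0.564 RPKM (SD, n = 3) over the union of exons, and 75.6 RPKM over the longest transcript, since its models are many. The related H2afy2 had no read. H2afx (chr9:44334694-44336077, +) encodes H2AX, which is phosphorylated at DNA breaks, and had 50.7, 54.3 and 59.95 CPM, 39.7 ± 3.35 RPKM. H2afv, H2afx and H2afy stand as neighbours in the order per kb of union exon, where H2afv and H2afx overlap between cultures. H2afj (chr6:136808244-136810074, +), a little-studied H2A variant, was the lowest detected variant per kb, with 24.1, 24.6 and 44.8 CPM and 17.0 ± 6.45 RPKM (SD, n = 3). Small annotated genes lie opposite 10.2% of the exon bases of H2afx and 7.70% of those of H2afj. The testis genes H2afb1, H2afb2 and H2afb3 had no read, and the summed level of the 5 germ cell markers was 0.125 to 0.188 CPM.

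**Figure D2:**
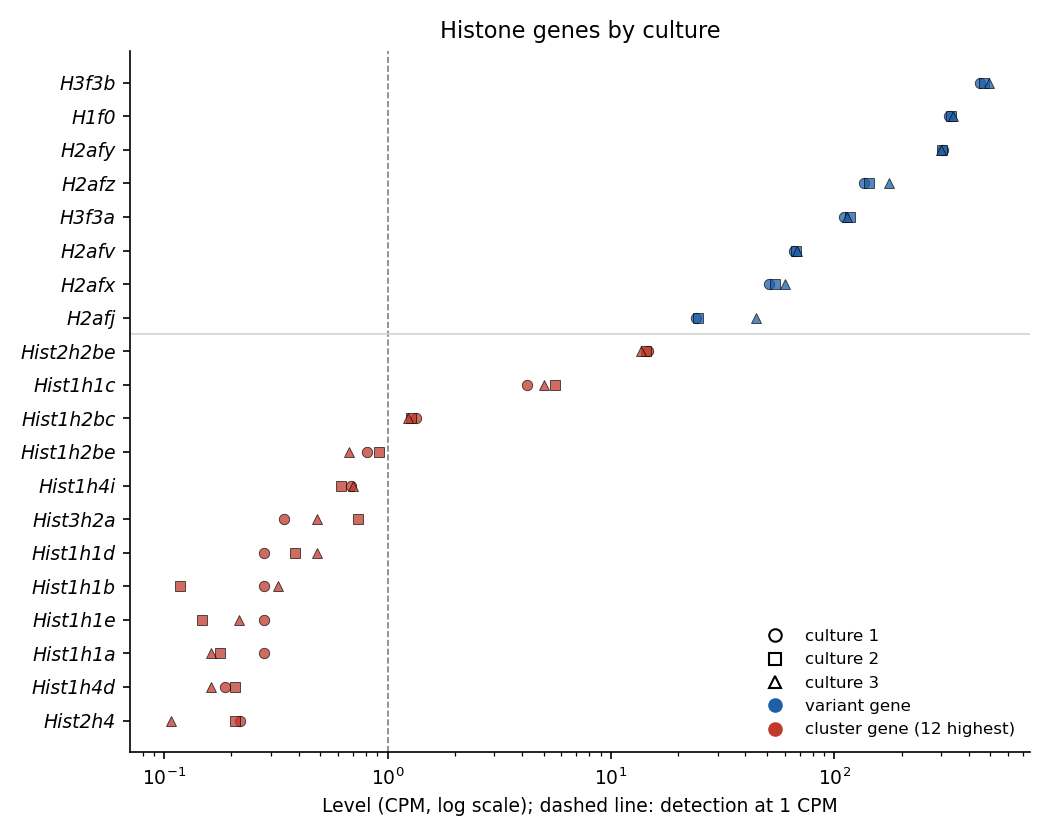
Level in CPM (log axis) of the 8 detected variants (blue) and the 12 highest cluster genes (red), with a marker shape for each culture and a dashed line at 1 CPM. Culture 3 lies apart from the others for H2afj, and 3 cluster genes lie right of the line in all cultures.

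Reads of the cluster genes came mostly from 3 of the 67. Hist2h2be, Hist1h1c and Hist1h2bc held 80.1% ± 1.28 (SD, n = 3) of them, and Hist2h2be alone 55.7% ± 2.07. Hist2h2be (chr3:96221119-96223738, +), an H2B gene, had 471, 486 and 504 reads, which is 14.7, 14.3 and 13.6 CPM and 5.42 ± 0.223 RPKM (SD, n = 3). All its words are unique, its model runs 2192 bases past the stop codon, the stem-loop letters are not in the searched window, and the poly(A) signal printed above stands near its end. At 35.1, its percentile among detected genes per kb lies in their lower part.

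Hist1h1c (chr13:23738808-23740367, +), which encodes the linker histone H1.2, had 135, 190 and 186 reads. These are 4.21, 5.61 and 5.00 CPM and 3.17 ± 0.448 RPKM (SD, n = 3). It holds the stem-loop letters, which were not found in the searched window of Hist2h2be. Its model goes on for 840 bases past them, with the poly(A) signal shown near its end. Hist1h2bc (chr13:23684199-23692908, +), an H2B gene, had 43, 43 and 46 reads, or 1.34, 1.27 and 1.24 CPM and 1.11 ± 0.0464 RPKM. The stem-loop letters were not in its window, but its model has 2 exons and a stem-loop in the intron would not be seen. Its words are 69.4% unique. Hist1h2bg shares 256 of them, most of those that are not unique, and 220 genes share at least 1, so its count is less certain. Per kb the order Hist2h2be, Hist1h1c, Hist1h2bc was the same in each culture without overlap.

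Just below the detection limit, Hist1h2be (H2B) had 0.811, 0.915 and 0.672 CPM. It shares 496 exon bases with Hist1h1e, so the counts of both are uncertain. Hist1h4i (H4) had 0.687, 0.620 and 0.699 CPM. Being short, it reached 0.920 ± 0.0587 RPKM (SD, n = 3), above the 0.180 RPKM of Hist1h2be and close to Hist1h2bc. No H2A, H3 or H4 gene of the clusters was detected. The highest per kb of each were Hist1h2af (0.263 RPKM), Hist1h3d (0.133 RPKM) and Hist1h4i. Hist1h2af rests on 2, 4 and 5 reads with 6% unique words, so which H2A gene they came from is uncertain. Further genes in the 10 highest per kb were Hist1h1b at 0.324, Hist1h1a at 0.279, Hist3h2a at 0.243 and Hist1h2ae at 0.186 RPKM. Of the exon bases of Hist3h2a, 33.0% are shared on the same strand with other genes, chiefly Trim17. The single gene of the Hist4 locus, Hist4h4, had 7, 1 and 2 reads.

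Most cluster genes sat at the counting limit. In 47 of 67, no culture gave more than 3 reads, and 19 had no read at all. A gene had 1 or more reads in every culture in 26 cases. By locus, the summed level per kb was 8.40 ± 0.544 RPKM for the 54 Hist1 genes, 5.75 ± 0.202 for the 10 Hist2 genes, 0.258 ± 0.0925 for the 2 Hist3 genes and 0.0351 ± 0.0359 for Hist4h4 (SD, n = 3). By type it was 7.45 ± 0.0842 RPKM for H2B, 3.93 ± 0.256 for H1, 1.64 ± 0.120 for H4, 0.860 ± 0.203 for H2A and 0.557 ± 0.225 for H3 (SD, n = 3). The ranges of H2A and H3 over the cultures overlapped. Within cultures 1, 2 and 3, H2A was above H3, at 0.684, 0.813 and 1.08 against 0.572, 0.325 and 0.774 RPKM, on few reads. The H2B sum lay above those of all other types in each culture. Hist2h2be alone gave 5.42 RPKM of the H2B sum and of the Hist2 sum, so both rest largely on that gene. Hist1h1c gave 3.17 RPKM of the H1 sum. Of the 18 H2A genes, 11 had no read, and the median share of unique words over them was 27.0%.

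The annotated 3′ end gives a second way to group the 67. In 17 genes the model ended at or near the stop codon, in 9 at the stem-loop and in 37 more than 30 bases past it. In 4 the stem-loop letters were not in the window. Of the 4, Hist1h2bc, Hist1h2bq and Hist1h2br are in this group through models of 2 exons, whose introns were not searched. The 1-exon models of Hist1h2bq and Hist1h2br end at the stop codon. The group therefore does not show that these genes lack a stem-loop. Detected were 0 of the 17, 0 of the 9, 1 of the 37 (Hist1h1c) and 2 of the 4 (Hist2h2be and Hist1h2bc). The other 2 of the 4, Hist1h2bq and Hist1h2br, had 4 reads in all and none, with 2.68% and 11.3% unique words. Extended models ran 31 to 4884 bases past the stem-loop, with a median of 185. The gene with the longest extension, Hist1h1d, had 0.281, 0.384 and 0.484 CPM. With a poly(A) signal in the model, 2 of 17 cluster genes were detected, and without it 1 of 50, Hist1h2bc.

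Across the 67 cluster genes, the length of the annotated 3′ UTR and the mean level had a Spearman correlation of 0.49 in CPM and 0.28 in RPKM. The share of unique words had one of 0.50 with RPKM and 0.49 with the 3′ UTR length. Over the 33 genes with at least 50% unique words, the correlation of 3′ UTR length and RPKM was 0.21. These describe genes within the same 3 libraries, which are not independent replicates, and length and uniqueness move together. Of 22 genes with a 3′ UTR model of at least 300 bases, 14 had 10 or more reads over the cultures, with a median of 75.3% unique words. Of the 45 others, 5 did, with a median of 35.2%. All 3 detected cluster genes were among the 33 with at least 50% unique words. Of the 34 below that share, 16 had no read, and together they reached 0.538 ± 0.158 CPM (SD, n = 3). How many reads were lost or moved between near-identical copies was not tested, because the handling of reads with several matches is not given in the sources used here.

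**Figure D3:**
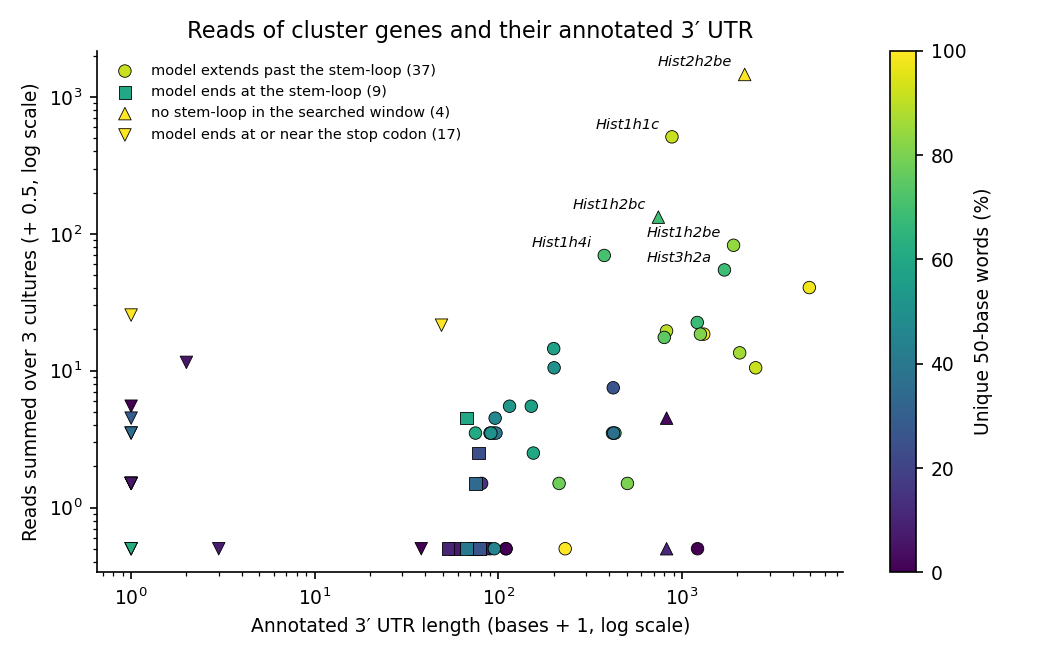
Reads summed over the 3 cultures (log axis, 0.5 added) against the annotated 3′ UTR length (log axis, 1 added) of the 67 cluster genes, with a shape for the kind of 3′ end and colour for the share of unique 50-base words. The 6 genes with most reads are named and all have a 3′ UTR model of at least 300 bases, and many genes with short models have both few reads and few unique words.

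Differences between cultures were tested gene by gene with a chi-square test of the reads against Poisson scatter, where the mean count was 10 or more, with Benjamini-Hochberg adjustment over all 13141 genes tested. It sets the 3 libraries against counting noise only. Of all genes tested, 32.8% were called at an adjusted p below 0.05. Among members, 6 of 8 variants and 0 of 7 cluster genes were called. Depth differs between these classes, since each detected variant had a mean of over 1000 reads, where 45.0% of all genes were called. The highest culture was culture 3 in 5 of the 6 called variants. Among all genes called it was culture 3 in 31.0% (1336 of 4304), and among those called with a mean of at least 1000 reads in 34.9%. As shares of the genes tested, these are 10.2% and 15.7%.

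H2afj had the largest ratio between cultures among members of at least 10 CPM. Its 1666 reads in culture 3 stood against 772 and 834 in cultures 1 and 2, a ratio of the highest to the lowest CPM of 1.86 with an adjusted p of 9.42e-67 in the chi-square test. Cultures 1 and 2 lay close together, and without culture 3 the adjusted p was 0.835. H2afz followed with a ratio of 1.29 and an adjusted p of 4.54e-43, culture 3 again being highest. H2afx had a ratio of 1.18 and an adjusted p of 1.05e-05, and without culture 3 its adjusted p was 0.155.

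H3f3b moved by a ratio of 1.10 (adjusted p 4.35e-14 in the chi-square test), with 14389, 15841 and 18282 reads. For H1f0 and H3f3a the ratios were 1.04 and 1.07, with adjusted p of 0.0281 and 0.0483. The call of H1f0 was lost without culture 1 (0.240) or culture 3 (0.490), and that of H3f3a without culture 1 (0.358) or culture 2 (0.333). H3f3a was highest in culture 2. H2afy (ratio 1.03, adjusted p 0.336) and H2afv (ratio 1.03, adjusted p 0.664) were not called.

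Among cluster genes, Hist2h2be had a ratio of 1.08 with an adjusted p of 0.587 in the chi-square test. Hist1h1c, lowest in culture 1, had a ratio of 1.33 and an adjusted p of 0.1001. The largest ratio among the 7 tested was that of Hist3h2a, whose 11, 25 and 18 reads gave 2.15 and an adjusted p of 0.174. At this depth a ratio of 1.33 was not called in Hist1h1c, while the smaller ratio of H2afz was called with 4357 to 6524 reads. The fifth member by ratio among those of at least 10 CPM, after the 4 called variants, was Hist2h2be.

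**Figure D4:**
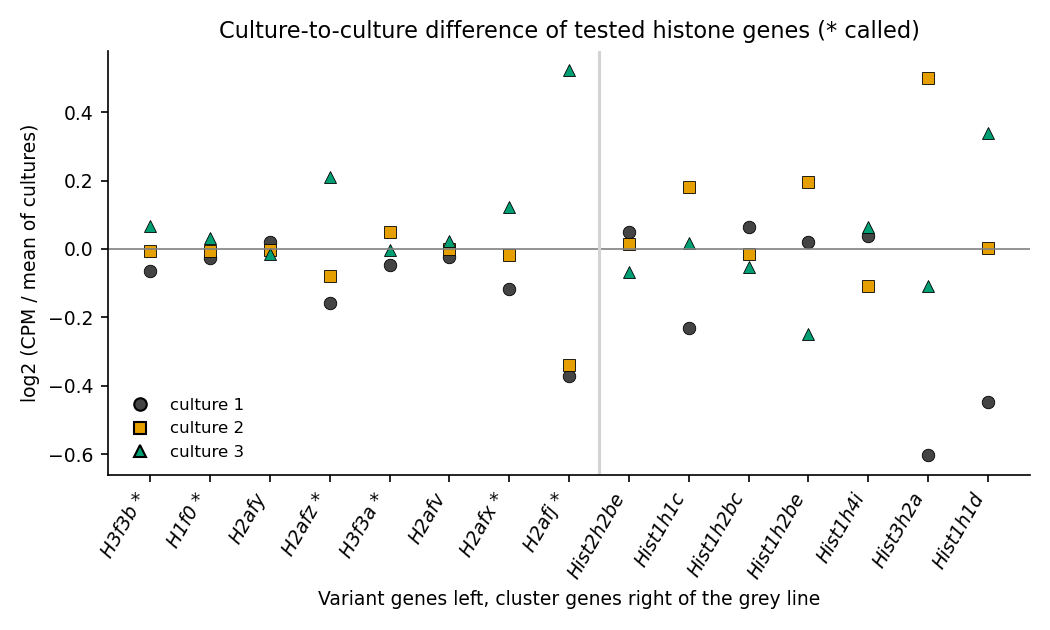
Log2 of each culture's CPM over the mean of the 3 cultures for the 15 tested protein-coding members, variants left and cluster genes right of the grey line, with an asterisk for a call. Culture 3 stands apart from cultures 1 and 2 for H2afj, while cluster genes of few reads scatter without a call.

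Genes of the histone pathway were described beside the members. Their counts of calls between cultures stand beside the 32.8% of all tested genes called and the 45.0% of those with at least 1000 reads, and are not taken as particular to any list. Of 20 genes for S phase, in which most cluster genes are normally switched on, all were detected. Between cultures 12 were called, 6 of them with culture 3 highest. The 3 with the highest CPM were Mcm6 at 501, a part of the replicative helicase, and Rrm2 at 464 and Rrm1 at 356, the subunits of ribonucleotide reductase. The summed S phase level was 3426, 3490 and 3517 CPM, a ratio of 1.03. Summed cluster genes had a ratio of 1.04 with culture 2 highest, and summed variants 1.08 with culture 3 highest. The part of cell cycle or depth, which was also greatest in culture 3, in the variant differences was not tested.

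For histone RNA 3′ processing and decay, 19 of 20 listed genes were matched, and all 19 were detected. The 3 with the highest CPM were the cleavage factors Sympk at 296, Cpsf2 at 283 and Cstf2 at 270. Slbp, the stem-loop binding protein, had 84.4, 85.9 and 87.8 CPM (adjusted p 0.477 in the chi-square test). The U7-specific proteins Lsm10 and Lsm11 had 23.3 and 31.4 CPM, and Npat, which activates the clusters, 66.5 CPM. Per kb, Slbp stood at 14.2 RPKM, above the 5.42 RPKM of the highest cluster gene, Hist2h2be. In this list 9 of 19 were called, 5 with culture 3 highest, led by Snrpb, a core snRNP protein, with 169, 185 and 231 CPM.

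All 24 histone chaperones and exchange factors were detected and 13 called, 3 with culture 3 highest. The 3 with the highest CPM were Npm1 (1355), Nap1l1 (552) and Atrx (477). Per kb, Hira, a chaperone of H3.3, had 1.76 RPKM, whereas Daxx and Atrx, which form another H3.3 pathway, had 9.48 and 21.9 RPKM. Anp32e and Srcap, which remove and deposit H2A.Z, had 95.6 and 0.511 RPKM. Of 5 histone genes outside the rule, Cenpa, the centromeric H3, was the one detected, with 133, 103 and 103 CPM. It was highest in culture 1 (adjusted p 5.98e-38 in the chi-square test), as was its chaperone Hjurp with 354, 309 and 289 CPM. Hils1, H2bfm and H2al2a had no read.

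Other RNAs that lack a poly(A) tail were read in the same way. Of 12, 6 had no read, among them Rmrp, Rpph1 and Terc, and 1 was detected. Rn7sk, the 7SK RNA, had 1.37, 1.33 and 1.75 CPM, and Scarna13 and Scarna2 followed at 0.0746 and 0.0740 CPM. Several of these are very short or have copies, so a count of 0 in them also depends on size selection and counting, which was not tested. All 15 genes of the canonical poly(A) machinery were detected, and the 3 with the highest CPM were Pabpc1 (3610), Papola (307) and Cpsf6 (171). Called were 7 of the 15, and none of the 7 had culture 3 highest. Of all genes tested, 32.8% were called, with culture 3 highest in 31.0% of those called. For genes with at least 1000 reads these shares were 45.0% and 34.9%. The list was not limited to that depth, and the called gene Pabpn1 had a mean of 8.01 CPM.

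Per kb, the 11 detected members had a median of 39.7 RPKM, against 8.65 RPKM for all detected genes. The 8 detected variants had a median of 42.9 and the 3 detected cluster genes one of 3.17 RPKM. Since passing 1 CPM chose these members, the medians describe those above the limit and not the class.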

How the data were processed

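RNA of 3 cultures was sequenced as strand-marked poly(A) libraries with 50-base single-end reads. Per the labels, the authors aligned reads to GRCm38 with HISAT2 and counted with GenSum. For versions, annotation release, strand setting and multi-match handling: not given in the sources used here. In the table the authors deposited, each log2 value is that of reads per 10000000, plus 1. Undoing the log gave whole reads for 100% of entries (tolerance 0.01). The unit on file is therefore log2, and recovered reads were tested by a chi-square test, with no count model fitted because 1 group has no contrast.

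Of 55486 rows, cultures 1 and 2 follow the gene identifier and culture 3 the symbol and coordinates. Culture 3 was joined by exact coordinates in GENCODE M21 (54907 rows) or a symbol naming 1 gene (333).

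Levels are CPM over the column sum, or RPKM over union exon length. Unique words are 50-base words in no other gene's transcript. Named genes were all detected variants, the highest variant not detected, the 10 cluster genes highest per kb, and the highest by type and locus. Also named were the 5 largest culture ratios at 10 CPM or more and detected cluster genes without the stem-loop letters in the window. Members beside 1 CPM, and the highest 3 and up to 3 undetected of each list, were named too. Hist1h3g, Hist1h2bq, Hist1h2br, Hist1h1d, the called genes Snrpb and Hjurp and list genes named for their roles were added after their values were seen. Members and lists were chosen with earlier results of these data known. Scripts were tested on simulated data. Python 3.11.15, NumPy 2.4.6, SciPy 1.17.1, pandas 2.3.3 and Matplotlib 3.10.9 were used.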

Additional observations from a re-analysis of the deposited data

How the results depend on the processing

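Alternatives changed the scaling, detection limit, read minimum, gene length, uniqueness, row matching and the cultures used. The size of a difference between cultures has no sign, so the highest culture was compared instead. It stayed the same for all 15 tested members under the 2 other scalings. On rows as deposited, culture 3 holds another gene's reads beside the identifiers that cultures 1 and 2 follow. The highest culture there changed for the rows of H2afy, H2afv, Hist1h1d, Hist1h2bc and Hist1h4i, which describes the row mismatch and not these genes. The identifier row of H2afy read 321 CPM in culture 3, where H2afy itself had 300 on matched rows, against 308 in culture 1. Detected cluster genes were 5 at 0.5 CPM and 1 at 5 CPM. Detected members were 4 when taken by the deposited symbols as written, an alternative chosen after seeing the data. The cluster share of the level per kb was 2.03% with the longest transcript as length and 2.25% with members of at least 50% unique words. The median per kb of detected members was 32.5 RPKM at 0.5 CPM. The sum over the cluster gene rows was 24.7 CPM on rows as deposited, with other genes' reads in culture 3.

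Leaving out each culture in turn gave 3 to 5 members differing between cultures, the 3 without culture 3, against 6 with all. Over these fits 11 members, 8 variants and 3 cluster genes stayed detected, and the cluster share was 1.62% to 1.70% of reads and 2.40% to 2.47% per kb. The median per kb was 38.0 to 40.5 RPKM, summed cluster genes 25.2 to 25.7 CPM and summed variants 1490 to 1552 CPM. Over the alternatives on matched rows, the adjusted p of the chi-square test ran from 7.02e-51 to 0.0451 for H2afz. For H3f3b it ran from 9.19e-23 to 0.00378, and both genes stayed called. It ran from 4.25e-71 to 0.835 for H2afj and from 1.93e-07 to 0.155 for H2afx. For H1f0 it ran from 3.52e-05 to 0.490 and for H3f3a from 0.00617 to 0.358. With no read minimum, H3f3a was not called (0.0826). On rows as deposited, where culture 3 holds another gene's reads, H2afy (0.000283) and Hist2h2be (0.00612) were called. There the adjusted p of the chi-square test was 1.97e-38 for the row of H3f3b and 2.01e-13 for that of H1f0. These values set reads of different genes against each other and do not bear on the members. Scaling moved no culture by more than 0.0179 on the log2 scale. No paired analysis was possible because there is 1 group.

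Depth limits the cluster genes: 7 of 67 had the mean of 10 reads needed for the test.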
